A study of Homo sapiens with 3 samples.

Results

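The genes described here are 44 components and target genes of the Wnt/β-catenin pathway, listed by name and read in SW480 cells with and without knockdown of the RNA-binding protein RBMS1. They were found by matching the RefSeq transcripts of the authors' deposited table to gene symbols and taking each transcript of a listed gene. Of the 44 genes, 42 had a value, from 74 of 20104 transcripts, and LGR5 and TCF7L1 were not analysed here. The table as a whole gave values for 12582 genes.

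SW480 is an established line from a human colon tumour, and it carries truncated APC. Cells received shControl in 2 libraries or shRBMS1, a single hairpin, in 1 library, and total RNA was taken 48 hours later. All 3 libraries share the line, the transduction and the removal of ribosomal RNA. The sources used here do not say whether both control libraries have 1 hairpin in common, nor whether they come from separate cultures.

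The authors' deposited table holds 1 number per transcript, the log2 fold change of shRBMS1 over shControl, so a value of −1 means that the level with the knockdown is at 50% of control. Levels in each library were not analysed here. With 1 knockdown library and 1 ratio per transcript there is no replicate error, and no test or p-value is given. The sequencing depth behind each ratio is unknown. In this report the gene value is the median over the transcripts of a gene, and it is computed here. In bulk RNA, a change in the level per cell and a change in the mix of cells cannot be told apart.

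Wnt ligands are lipid-modified proteins that bind Frizzled receptors with the co-receptors LRP5 and LRP6. Without a signal, a destruction complex built on APC and AXIN, with the kinases GSK3 and CK1, marks β-catenin for degradation through the ubiquitin ligase adaptor BTRC. When the complex fails, β-catenin enters the nucleus, joins TCF/LEF factors and the BCL9 and Pygopus cofactors, and switches on target genes, several of which feed back to dampen the pathway. In colon tumours with truncated APC the complex works poorly, and target genes are transcribed without a ligand.

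RBMS1, on chromosome 2 at 160272151 to 160493807, was lower in the knockdown, and its side of 0 was used to set the direction of all ratios. The gene value was −1.49, which is 35.6% of control. The authors' deposited table gives −1.62 for NM_016836 and −1.36 for NM_002897, or 32.5% and 39.1% of control. Its sign therefore does not check the labels.

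Most of the Wnt genes lay slightly lower with the knockdown. Of the 42 genes, 28 (66.7%) had a gene value below 0, against 48.5% of all genes. Their median was −0.24, or 84.7% of control, and the quartiles were −0.36 and 0.09. Over all genes the median was 0.01 and the quartiles were −0.25 and 0.23. Most of the Wnt genes lay within 0.58 of 0, 31 of 42 (73.8%), a smaller share than the 81.1% of all genes. BCL9 and TLE1 stood at or below −1, which makes 2 of 42 against 3.96% of all genes. TCF7L2 alone stood at or above 1, against 3.95% of all genes, and it stood at −1.11 once its transcript beyond 5 was left out. At or below −0.58 there were 9 of the 42 genes, against 10.5% of all genes, and at or above 0.58 there were 2, against 8.35%.

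The lower values were spread over most roles, while the 8 target genes with no other role lay on both sides of 0. Over all genes 48.5% were below 0, which is the share to set beside each count here. Below 0 were 3 of 3 genes of ligand secretion, with a median of −0.36. So were 6 of 8 genes of receptors and their turnover, with a median of −0.22. The same held for 10 of 14 genes of the destruction complex and cytoplasmic relay (median −0.24) and for 6 of 9 nuclear factors (median −0.28). The nuclear median depended most on the setting, at −0.66 without transcripts beyond 5 and −0.99 over the 4 nuclear genes with 1 transcript. Taking for every gene its transcript nearest 0, the median was −0.11 for receptors and −0.23 for ligand secretion. Of the 8 genes that are listed as targets and have no other role here, 3 were below 0 and the median was 0.13. These 8 genes divide into a low set of 3, from −0.99 to −0.72, and a set of 5 from 0.02 to 0.58. Taken with the targets that have another role here, 9 of 15 targets were below 0, with a median of −0.26. Of the members that are not targets, 19 of 27 were below 0, with a median of −0.23. Differences between these small groups were not tested.

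**Figure D1:**
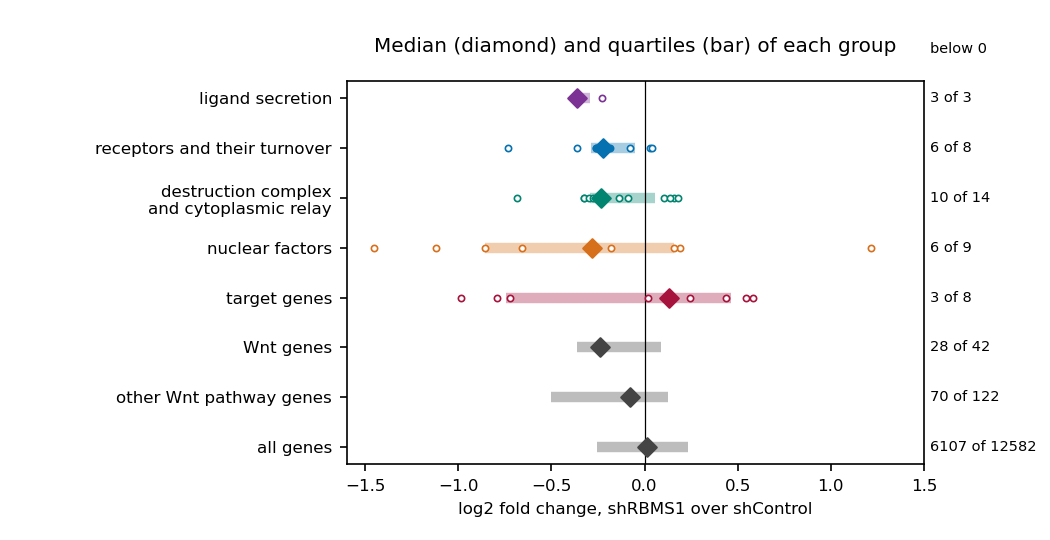
Gene values of the Wnt genes by role (open circles), with the median (diamond) and quartiles (bar) of each role and, in grey, of all 42 Wnt genes, 122 other pathway genes and all genes, on the log2 scale, shRBMS1 over shControl, and the number of genes below 0 at the right. By these gene values the medians of the first 4 roles lie between −0.36 and −0.22, the target genes lie on both sides of 0, and all 12582 genes centre on 0.01.

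Among the genes that make and inactivate ligands, WLS, which carries Wnt proteins to the cell surface, was at −0.36, or 77.9% of control. Both of its transcripts lay below 0, at −0.51 and −0.21 in the authors' deposited table. NOTUM, a secreted enzyme that strips the lipid from Wnt ligands and is itself a Wnt target, was at −0.39, or 76.5% of control, from 1 transcript. PORCN, the acyltransferase that attaches the lipid, had a gene value of −0.23, but its transcripts did not stand together. The authors' deposited table has NM_022825 at −3.24, NM_001282167 at −0.23 and NM_203474 at 0.32.

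Of the receptor genes, RNF43 was furthest from 0. It encodes a ubiquitin ligase that removes Frizzled receptors from the membrane, lies on chromosome 17 at 58352500 to 58417534, and was at −0.73, or 60.2% of control. ZNRF3, its partner ligase, was at −0.19, and the authors' deposited table has its transcripts at −0.40 and 0.03. The co-receptors differed in value, LRP5 at −0.36 (77.7% of control) and LRP6 at 0.03 (102%). The R-spondin receptor LGR4 and the Frizzled receptor FZD5 stood side by side at −0.26 and −0.26. VANGL1, a planar polarity protein, was at 0.04.

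PTK7, a pseudokinase co-receptor of the polarity branch, shows how 1 transcript can stand apart from its gene. The authors' deposited table has NM_001270398 at −9.81, next to the lower limit of the table, and its other 3 transcripts at −0.25, 0.09 and 0.28. The gene value was −0.08. A ratio of that size has no level beside it, and a transcript almost undetected under 1 condition would give it as well as an abundant one.

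In the destruction complex and relay, APC, AXIN1, CTNNB1 and CSNK1A1 lay above 0 and the other 10 genes below. CTNNB1, which encodes β-catenin, was at 0.18, or 113% of control, and its 3 transcripts in the authors' deposited table were all above 0, at 0.08, 0.18 and 0.35. AXIN1, the constitutive scaffold, was at 0.10, with both transcripts above 0. APC had a gene value of 0.16, midway between NM_000038 at −0.44 and NM_001127510 at 0.75 in the authors' deposited table. Their GENCODE models have the same coding length, 8529 bases.

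The kinases that phosphorylate β-catenin lay on both sides of 0. GSK3A was at −0.25 and GSK3B at −0.22, or 83.9% and 86.0% of control, each from 1 transcript. CSNK1A1, which encodes the priming kinase CK1α, was at 0.13, and the authors' deposited table has its transcripts at −1.71, −0.25, 0.52 and 0.52. BTRC, the adaptor that binds phosphorylated β-catenin, was at −0.30, and 2 of its 3 transcripts were below 0.

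The tankyrases, which mark AXIN for degradation, were both below 0. TNKS2 lies on chromosome 10 at 91798426 to 91865475. It was at −0.68, or 62.2% of control, and TNKS was at −0.27, or 82.7%. The 3 Dishevelled genes, which relay the receptor signal, were all below 0 as well. DVL2 was at −0.32, DVL1 at −0.14 and DVL3 at −0.09.

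Among pathway genes that β-catenin itself induces, and that act back on the pathway as inhibitors, 5 had gene values below 0, as did 48.5% of all genes. These were RNF43 at −0.73, NOTUM at −0.39, NKD1 at −0.33, AXIN2 at −0.26 and ZNRF3 at −0.19. Taken by its transcript nearest 0, ZNRF3 was at 0.03. The median of the 5 was −0.33, or 79.8% of control. NKD1 binds Dishevelled, and AXIN2, on chromosome 17 at 65528563 to 65561648, rebuilds the destruction complex. These 5 were put together after their values were seen, so the common direction is a description and can come from the choice. They belong to the 15 listed targets with a value, of which 9 were below 0 and 6 above. SP5 at 0.24 and TNFRSF19 at 0.55 are 2 of those above. RNF43 was the only one of them beyond 0.58.

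**Figure D2:**
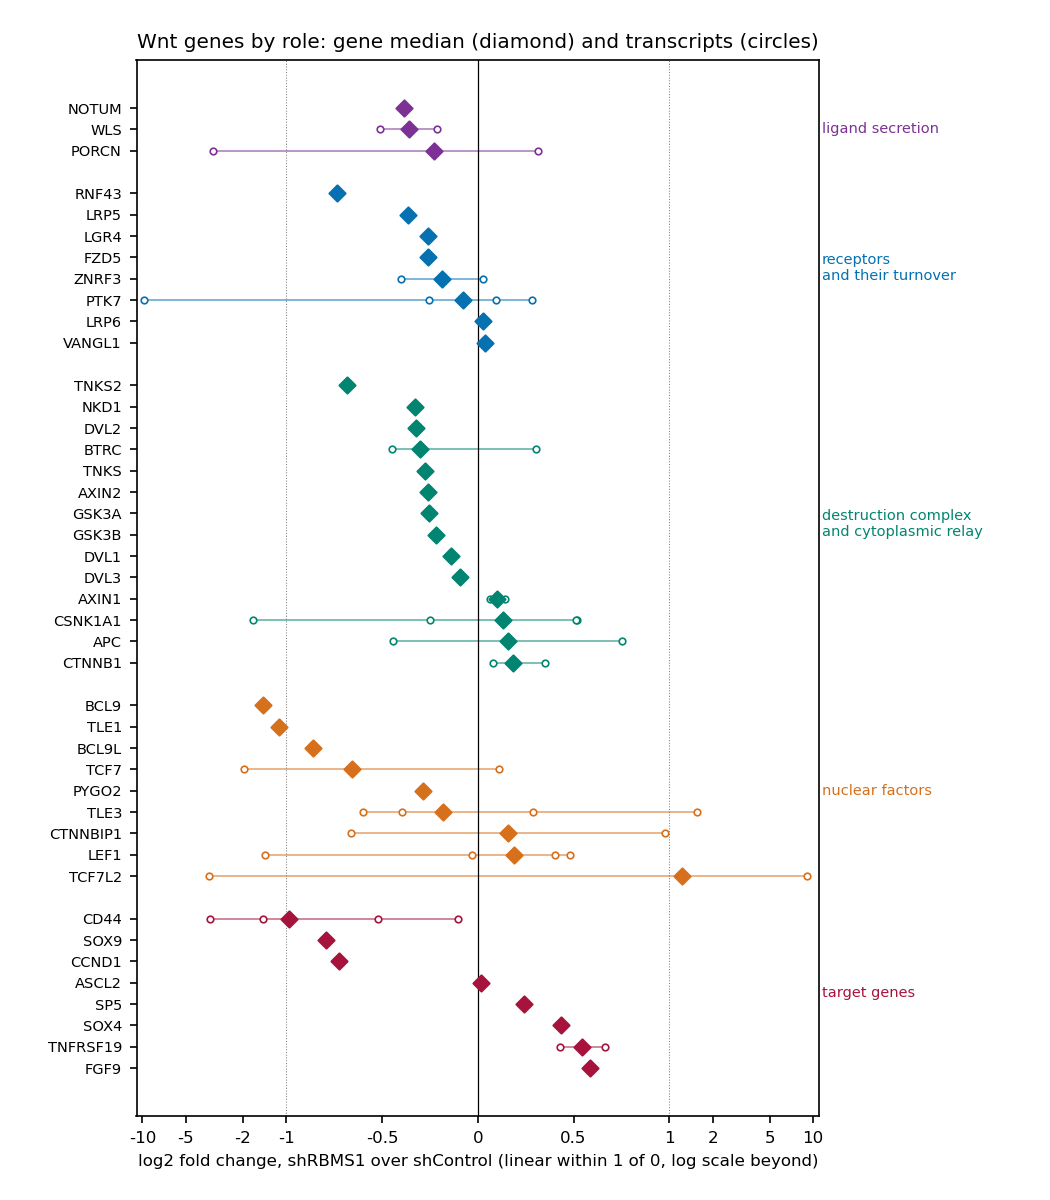
Each of the 42 Wnt genes with a value, by role: the gene value (diamond) and its transcripts in the authors' deposited table (open circles, joined by a line), as log2 fold change of shRBMS1 over shControl on an axis that is linear within 1 of 0 and logarithmic beyond. The lowest gene values are those of BCL9, TLE1 and CD44, and the widest spreads between transcripts are those of TCF7L2 and PTK7.

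The nuclear factors held the gene values furthest from 0. BCL9, which bridges β-catenin to Pygopus, lies on chromosome 1 at 147541501 to 147626216 and was at −1.45, or 36.5% of control, at percentile 2.01 of all genes. Its paralogue BCL9L lies on chromosome 11 at 118896136 to 118925926 and stood at −0.86, or 55.2% of control, at percentile 5.35. PYGO2, the Pygopus protein that both bind, was at −0.28, or 82.1%. Each of these 3 genes rests on 1 transcript, and all lay below 0.

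Genes of the TLE (Groucho) family, whose long members are corepressors that hold TCF-bound genes silent, differed widely in value. TLE1 lies on chromosome 9 at 81583683 to 81689547, and its gene value of −1.12, or 46.0% of control, rests on NM_001303103 alone. TLE3 was at −0.18, and the authors' deposited table puts its 5 transcripts between −0.60 and 1.56. From the other pathway genes, TLE4 was at −1.62, with both transcripts below −1, and TLE5, a short family member, was at −1.37, from values of −2.50 and −0.24 in the authors' deposited table. CTNNBIP1, which blocks β-catenin from TCF factors, had a gene value of 0.16, and the authors' deposited table gives −0.66 and 0.98 for its transcripts.

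The TCF/LEF factors bind DNA for β-catenin, and each of the 3 with a value, TCF7, LEF1 and TCF7L2, had transcripts on both sides of 0. TCF7, on chromosome 5 at 134108218 to 134148210, had a gene value of −0.66, or 63.3% of control. The authors' deposited table puts NM_003202 at −1.97 (25.6% of control), NM_201632 at −0.66 (63.3%) and NM_201634 at 0.11 (108%). The lowest, NM_003202, and the highest, NM_201634, differ at their start. In GENCODE models the first codes for 384 amino acids and the second for 268, and the second begins in frame after 115 codons of the first. It is known of TCF7 that short forms from an internal start lack the β-catenin-binding domain at the N terminus. A GENCODE model of NM_201632 was not used here.

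The first 30 coding bases of both TCF7 transcripts are shown because they mark the alternative starts, with the start codon in capitals, at chr5:134114907-134114936 for the long form and chr5:134115938-134115967 for the short (hg38, plus strand).
TCF7 NM_003202: ATGccgcagctggactccggcgggggcggc
TCF7 NM_201634: ATGtacaaagagaccgtctactccgccttc

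LEF1 also had a transcript with a later start. Its gene value was 0.19, or 114% of control. The authors' deposited table has the full-length NM_016269 at −0.03, and NM_001166119 at 0.40, or 132% of control. The latter has its own first exon and leaves out the first 71 codons, the end of the protein that binds β-catenin. The other LEF1 transcripts begin at the full-length start and stood at opposite ends, NM_001130713 at −1.41 and NM_001130714 at 0.48 in the authors' deposited table. The later start was thus near 0 or above it in both genes, but in LEF1 a form with the full-length start was as high.
LEF1 NM_016269: ATGccccaactctccggaggaggtggcggc
LEF1 NM_001166119: ATGgcagaggtggccagacaagcacaaacc

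These are the first 30 coding bases of the LEF1 forms, start codon in capitals, on the minus strand of chromosome 4. They span 108167738 to 108167767 for the full-length form and, across an intron, 108165143 to 108166280 for the short one.

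TCF7L2, the main TCF factor of colon epithelium, had the highest gene value of the Wnt genes, 1.22, or 2.32 times control. That value is the middle one of transcripts far apart. The authors' deposited table has NM_001146285 at 9.06, NM_001146286 at 1.22 and NM_001198530 at −3.44. All 3 share their first coding base, and in GENCODE models they code for 579, 489 and 408 amino acids. With no level per transcript, the direction of TCF7L2 as a gene is not known from these values.

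**Figure D3:**
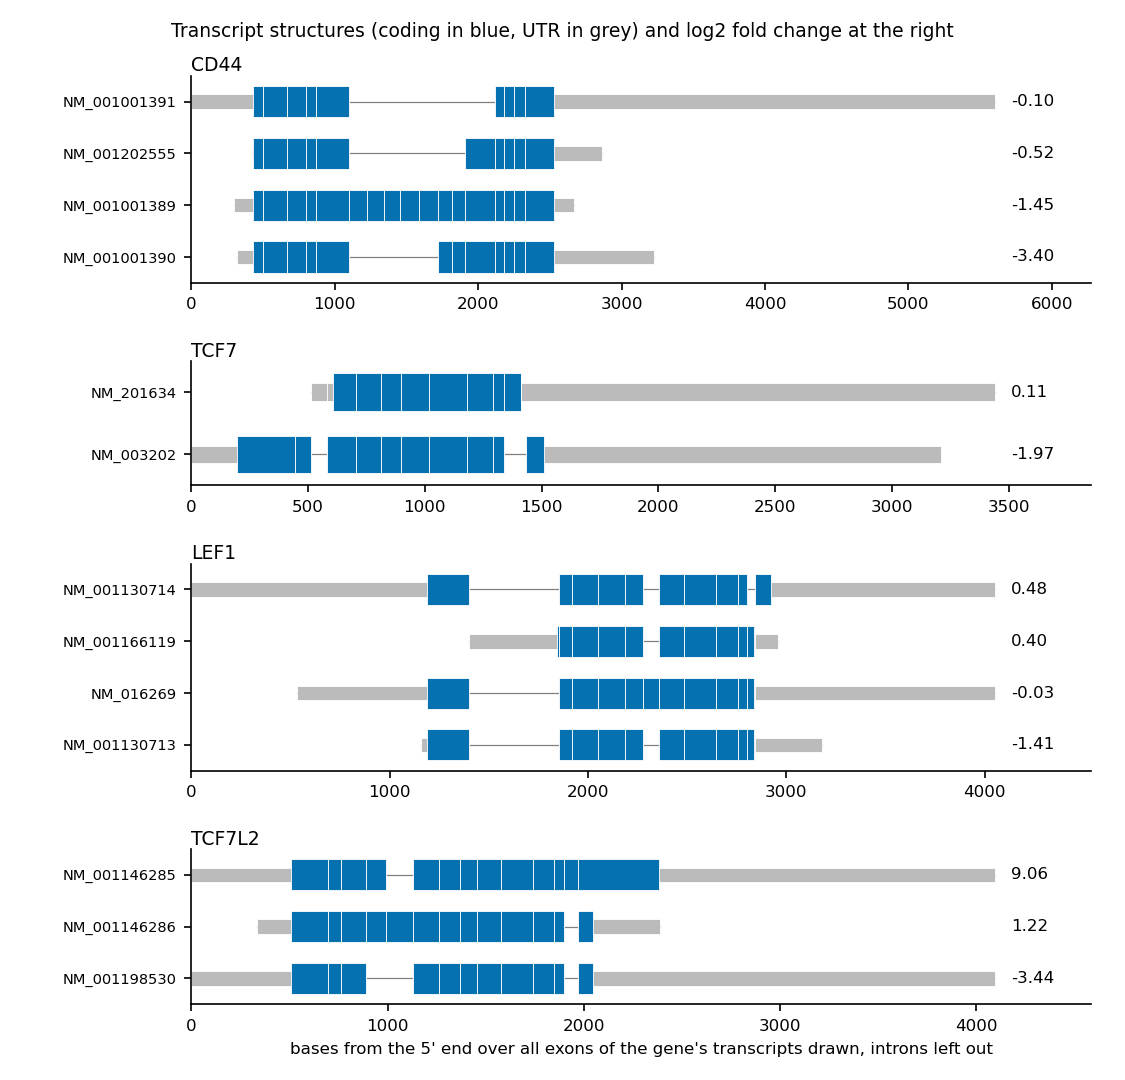
Exon structures of the transcripts of CD44, TCF7, LEF1 and TCF7L2 in GENCODE 29, with introns left out and drawn to scale in bases from the 5′ end (coding parts in blue, UTRs in grey), and the log2 fold change of each from the authors' deposited table at the right. In CD44 the form without variable exons stands at −0.10 and the forms with them stand lower, down to −3.40. In TCF7 the form with the later start stands at 0.11 and the long form at −1.97.

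Among the target genes, 3 lay at 50.5% to 60.5% of control. CD44, an adhesion receptor for hyaluronan on chromosome 11 at 35139171 to 35232402, stood at −0.99 and at percentile 4.05 of all genes. SOX9, a transcription factor of intestinal crypts on chromosome 17 at 72121020 to 72126416, stood at −0.79 and so at 57.7% of control. CCND1, which encodes the G1 cyclin D, lies on chromosome 11 at 69641156 to 69654474 and was at −0.72, or 60.5%. SOX9 and CCND1 each rest on 1 transcript.

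The CD44 transcripts were all below 0, and those with variable exons were lower than the one without. NM_001001391, the standard form without variable exons, had −0.10 in the authors' deposited table, or 93.2% of control. With 1 variable exon of 204 bases, NM_001202555 was at −0.52 (69.7%) in the authors' deposited table. With 8 variable exons, NM_001001389 was at −1.45 (36.6%) there. With 3, NM_001001390, a form known from epithelial cells, stood lowest, and the authors' deposited table has it at −3.40 (9.50%). The value therefore did not follow the number of variable exons: the form with 3 lay below the form with 8. These forms share most of their exons, so each ratio depends on how the authors' software divided shared reads between them.

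The exon joins that set the CD44 forms apart are shown, with the last 15 bases of the exon that all 4 share before the variable region, which ends at position 35190065 of chromosome 11, in lower case and the first 15 bases of the next exon in capitals. The next exon begins at 35214852 in the standard form, 35211246 in the form with 1 variable exon, 35208105 with 3 and 35198121 with 8.
CD44 NM_001001391: gaatccctgctaccaGAGACCAAGACACAT
CD44 NM_001202555: gaatccctgctaccaATAGGAATGATGTCA
CD44 NM_001001390: gaatccctgctaccaATATGGACTCCAGTC
CD44 NM_001001389: gaatccctgctaccaGTACGTCTTCAAATA

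The other 5 target genes lay at or above 0. FGF9, a fibroblast growth factor, was at 0.58, or 149.9% of control, at percentile 91.7 of all genes. TNFRSF19, also called TROY, a receptor of crypt stem cells, was at 0.55, with both transcripts above 0, at 0.43 and 0.66 in the authors' deposited table. SOX4, a transcription factor of progenitor cells, was at 0.44, or 135% of control. SP5, a transcription factor that answers directly to β-catenin, was at 0.24, and the crypt stem cell factor ASCL2 at 0.02.

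SP5 is also the only Wnt gene whose start region held a TCF/LEF motif in the windows searched. RefSeq promoter windows (GRCh38.p14, 250 bases before to 50 after a start) matched 31 of the 44 genes with 44 windows. The motifs CTTTGAT and CTTTGAA were searched on both strands. They occurred in 1 of these 44 windows (2.27%), against 6.86% of all 35116 windows. The SP5 window at chr2:170715087-170715386 (plus strand) holds 3 motifs, starting 148, 109 and 84 bases before the gene's start, the second CTTTGAT as written and the others CTTTGAA on the opposite strand. It is shown, with the motifs in capitals, because SP5 is a direct target. A match describes letters and not binding.
SP5: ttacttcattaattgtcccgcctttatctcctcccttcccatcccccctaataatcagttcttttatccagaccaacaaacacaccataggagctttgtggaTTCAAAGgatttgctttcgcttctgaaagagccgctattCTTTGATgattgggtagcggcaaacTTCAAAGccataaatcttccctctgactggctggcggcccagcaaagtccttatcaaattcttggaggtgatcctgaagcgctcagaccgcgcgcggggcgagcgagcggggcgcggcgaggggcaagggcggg

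RBMS1 is known to bind A+U-rich sequence such as AUAUA in 3′ UTRs, so the same letters, written ATATA, were counted in the longest GENCODE 3′ UTR among each gene's transcripts. Of the 42 Wnt genes, 32 (76.2%) held at least 1 site, against 58.4% of 11326 genes with a 3′ UTR. The Wnt genes also had longer 3′ UTRs, with a median of 2039 bases against 1143. The median gene value was −0.26 for the 32 genes with a site and −0.16 for the 10 without. Over all genes the medians were 0.02 with a site and −0.00407 without.

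The number of sites did not order the Wnt genes by value. LRP6, with 38 sites, was at 0.03, and GSK3B, with 25, at −0.22. BCL9, the lowest, had 2, and TLE1 had 1. FGF9 and BCL9L each had 9 and stood at 0.58 and −0.86. Spearman's rho between the number of sites and the gene value was 0.05 over the 42 genes, which share libraries and are not independent, and 0.02 over all 11326.

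The first site that has 12 bases of 3′ UTR on each side is shown, to let the contexts be compared. Shown are the 12 genes with a site and a gene value at or below −0.58 or at or above 0.4. The limit on the higher side was set at 0.4 to include SOX4 and TNFRSF19. The site is in capitals (hg38 positions in the same order are chr1:147625668-147625696, chr9:81583707-81583735, chr11:35231529-35231557, chr11:118896919-118896947, chr17:72125186-72125214, chr11:69652126-69652154, chr17:58353692-58353720, chr10:91863438-91863466, chr10:113166232-113166260, chr13:21702057-21702085, chr13:23673689-23673717 and chr6:21597051-21597079). TLE1, BCL9L and RNF43 lie on the minus strand and the others on the plus strand. TCF7, at −0.66, held no site. The last 4 genes are those with a gene value above 0. A site belongs to the transcript with the longest 3′ UTR, which need not be the one that sets the gene value. The authors' deposited table has −0.10 for NM_001001391, which holds the CD44 site in a 3′ UTR of 3069 bases. The 3 lower CD44 forms hold 0 sites in GENCODE models with shorter 3′ UTRs, of 135, 333 and 694 bases. The TCF7L2 site shown is from NM_001198530, at −3.44 in the authors' deposited table. NM_001146285, at 9.06 there, holds 12 sites, and NM_001146286, at 1.22, holds 0 in a 3′ UTR of 338 bases. A count of 0 in a short model does not show that the transcript the authors quantified lacks a site.
BCL9: tcttgtctcccaATATAccaacccactgg
TLE1: tataaattgtaaATATAtttggtttatta
CD44: tccctcacttggATATAcctctgttttca
BCL9L: agagctgaagccATATAcgactgggtgtt
SOX9: gtaagctttatcATATAtatattttttaa
CCND1: aatagtgacataATATAttctatttttat
RNF43: ctatgttaagaaATATAtttatttgctaa
TNKS2: cattgctttgtaATATAaatctgttttag
TCF7L2: agcgtttaaaaaATATAtatatatacata
FGF9: tttatttattttATATAtttatttattat
TNFRSF19: gagattgtggacATATAacaagaaacaga
SOX4: atggtggggttaATATAgcatgttatcct

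Other features of the transcripts move with the ratios over the whole table and differ between the Wnt genes and the rest. The Wnt genes had a median transcript length of 4290 bases and a GC content of 52.3%, against 3078 bases and 48.9% for all 11326 genes. Over those genes Spearman's rho of the gene value was −0.14 with length and −0.17 with GC content, and over the 42 Wnt genes it was −0.12 and −0.18. Their part in the lower median of the Wnt genes was not tested.

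Genes with 1 transcript carried most of the lower values. Of 26 Wnt genes with 1 transcript, 20 were below 0 and the median was −0.27, while 8 of the 16 with several transcripts were below 0 and their median was 0.01. Over all 7985 genes with 1 transcript, 49.6% were below 0 and the median was 0.00253. In 10 of these 16 (62.5%) the lowest and highest transcripts were more than 1 apart, against 49.3% of 4597 genes. For 11 of the 16, the transcripts stood on both sides of 0, as in 66.5% of those genes. By transcript, 10 of 74 were at or below −1 against 7.86% of the table, and 3 were at or above 1 against 8.27%.

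The rest of the pathway leaned less to the lower side. Of 168 other pathway genes listed for ligands, receptors, cytoplasmic and nuclear factors and further targets, 122 had a value. Of these, 70 (57.4%) were below 0, against 48.5% of all genes, and the median was −0.08, or 94.8% of control. At or below −1 were 7 of the 122, and at or above 1 were 3, beside 3.96% and 3.95% of all genes. The difference from the 44 listed genes was not tested.

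Ligands and extracellular regulators had the lowest median of these groups, −0.39, with 14 of 22 (63.6%) below 0, against 48.5% of all genes. GPC4, a glypican that holds Wnt ligands at the cell surface, was at −1.16. The inhibitors DKK1 and DKK4 were at −0.51 and −0.53, and the ligands WNT9A and WNT11 at −0.68 and −0.58. WNT9A and WNT11 were the lowest of the WNT ligands with a value. The others were WNT6 at −0.40, WNT5B at −0.17, WNT5A at −0.08, WNT7A and WNT16 at 0.07 and WNT3 at 0.13. TINAGL1, an extracellular matrix protein, was lowest at −4.83, from values of −9.30 and −0.36 in the authors' deposited table. TMED5 was highest at 0.72, from values of 0.13 and 1.31 in the authors' deposited table. KREMEN2 followed at 0.56, from −0.43 and 1.55 in the authors' deposited table, on both sides of 0.

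The other receptor and polarity genes centred on 0.04, with 10 of 21 (47.6%) below 0, against 48.5% of all genes. The cadherins CELSR2 and CELSR1 were lowest at −0.62 and −0.56. LGR6, a relative of LGR4, was at 0.75. PRICKLE3 was highest at 3.74, from values of −1.06 and 8.54 in the authors' deposited table.

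Cytoplasmic genes outside the list had a median of −0.09, with 17 of 29 (58.6%) below 0, against 48.5% of all genes. NKD2, the paralogue of NKD1, was at −1.06, and CDH1, the cadherin that binds β-catenin at junctions, at −0.79. RNF146, the ubiquitin ligase that acts on tankyrase-marked AXIN, was at 0.95, though the authors' deposited table spreads its 5 transcripts from −7.81 to 2.84. SIAH1, another ubiquitin ligase, was at 0.64, from values of 0.25 and 1.03 in the authors' deposited table.

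Other nuclear factors had a median of −0.08, with 14 of 24 (58.3%) below 0, against 48.5% of all genes. Besides TLE4 and TLE5, the highest were TAB1 at 1.24, from values of 0.06 and 2.43 in the authors' deposited table, and TBL1XR1 at 0.23. Further target genes had a median of −0.13, with 15 of 26 (57.7%) below 0, beside the same 48.5%. MYC, a target in colon tumours, was at 0.08. SLC12A2 and FOSL1 were lowest at −4.34 and −1.03, and L1CAM and VEGFA highest at 1.34 and 0.75. Each of SLC12A2, FOSL1 and L1CAM had transcripts on both sides of 0. The Eph receptors EPHB2 and EPHB3 were at −0.58 and −0.39.

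**Figure D4:**
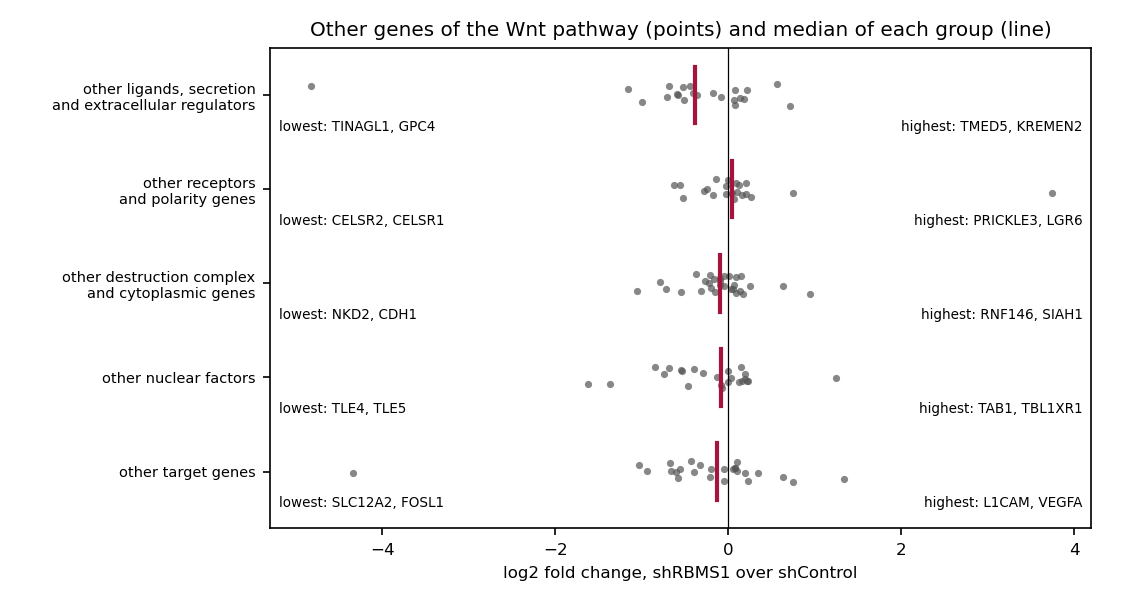
Gene values of 122 other genes of the Wnt pathway in 5 groups (points, spread vertically so that they can be told apart), as log2 fold change of shRBMS1 over shControl, with the median of each group as a line. Group medians run from −0.39 for ligands and extracellular regulators to 0.04 for receptors and polarity genes, and the names give the 2 lowest and 2 highest genes of each.

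Markers of colon epithelium were listed for 7 of 12 genes, with EPCAM at −0.37, KRT8 highest at 0.05 and VIL1 lowest at −2.33, and a median of −0.43. Of 10 markers each, 2 leukocyte genes (LYZ at −0.68 and CD68 at −0.54), 1 fibroblast gene (ACTA2 at −0.00254) and 1 endothelial gene (ESAM at −0.27) had a value. Ratios give no level, so they do not show how much of any marker is present, and the part of the epithelial markers in the Wnt values was not tested.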

How the data were processed

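Total RNA of 3 libraries, 2 shControl and 1 shRBMS1, was compared by the authors in 1 deposited table of log2 fold changes per RefSeq transcript. Per the submitters' processing notes, STAR 2.5, Cufflinks, Cuffdiff and the hg38 build were used. The sources used here give neither their roles nor their settings and filters. The header names neither base nor direction of the ratio. Base 2 was taken from values that occur at least 3 times: 20 transcripts lay 1 away within 1.5e-05, against 4 at ln 2 and 5 at log10 of 2. The direction was set from RBMS1.

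RefSeq gene names (GRCh38.p14) matched 19818 of 20104 transcripts (98.6%), and the other 286 entered no gene value. A gene value is the median of its transcripts. Thresholds of 1 and 0.58 are sizes, not tests. Transcript structures, lengths and 3′ UTRs came from GENCODE 29 through its RefSeq links, which can pair several RefSeq records with 1 model. Promoters came from RefSeq.

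The text names RBMS1, every Wnt gene with a value, the 2 highest and 2 lowest genes of each group of other pathway genes, and the highest and lowest marker. Other genes named (the WNT ligands, DKK1, DKK4, MYC, EPHB2, EPHB3, EPCAM) and the group of 5 feedback inhibitors were chosen after their values were seen. The members and lists were chosen with earlier results of these data known. Alternatives were the mean, the least changed, the longest or the coding transcripts as the gene value, centring, a limit of 5 on transcripts, genes with 1 transcript and a threshold of 0.58. The code for gene values was checked on simulated data. All transcripts of a simulated gene had the same value, so the check does not cover transcripts that differ. Python 3.11.15, numpy 2.4.6, pandas 2.3.3 and matplotlib 3.10.9 were used.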

Additional observations from a re-analysis of the deposited data

How the results depend on the processing

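The count of Wnt genes below 0 was 27 to 29 of 42 in each setting that kept the 42 genes, and 20 of 26 among genes with 1 transcript. The median of the Wnt genes stayed between −0.27 and −0.24, and that of the other pathway genes between −0.09 and −0.02. This stability was in part fixed beforehand. Settings that choose among transcripts or average them cannot move the 26 Wnt genes, or the 76 of 122 other pathway genes, with 1 transcript. Coding transcripts alone gave the Wnt genes the same values as the main setting, and centring moved every value by 0.01. Counts of far values moved more, and are given with the share of all genes in the same setting. At or above 1, the count of 1 became 2 with the longest transcript of each gene (5.40% of all genes). It became 0 without transcripts beyond 5 (3.64%), 0 among genes with 1 transcript (3.31%) and 2 at a threshold of 0.58 (8.35%). At or below −1, the count of 2 became 5 with the mean of transcripts (4.90%) and 9 at 0.58 (10.5%). It was 3 with the longest transcript (5.68%) and 3 without transcripts beyond 5 (3.10%). The last comes from TCF7L2, which turned from 1.22 to −1.11 when its transcript at 9.06 was left out, a setting added for single genes after the data were seen. The median of nuclear factors moved from −0.28 to −0.66 in that setting and to −0.99 among genes with 1 transcript. With the least changed transcript, the median of receptors moved from −0.22 to −0.11 and that of ligand secretion from −0.36 to −0.23. The 5 include PORCN at −1.05 and PTK7 at −2.42, each through a single low transcript. The 8 genes whose value moved by at least 0.58 in some setting were APC, CD44, CTNNBIP1, PORCN, PTK7, TCF7, TCF7L2 and TLE3. With the least changed transcript, CD44 was at −0.10, TCF7 at 0.11, APC at −0.44 and CTNNBIP1 at −0.66. With the longest, TCF7 was at −1.97, TLE3 at 1.56, CTNNBIP1 at 0.98 and TCF7L2 at 9.06. Both CTNNBIP1 transcripts link to 1 GENCODE model, so its longest is a tie. RBMS1 kept its direction and size. No paired analysis was possible because the deposited ratio combines the libraries of each arm, and for the same reason no replicate could be left out.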
